A study of Mus musculus with 4 samples.

Results

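Class I antigen presentation was followed in NKT cells of the small intestinal lamina propria (SI-LP) through 10 genes, listed by name, out of the 25239 genes in the deposited table. They encode the light chain β2-microglobulin (*B2m*), both classical heavy chains of C57BL/6 mice (*H2-K1*, *H2-D1*), the peptide transporter (*Tap1*, *Tap2*), the loading factor tapasin (*Tapbp*), the inducible catalytic subunits of the proteasome (*Psmb8*, *Psmb9*, *Psmb10*) and the transactivator of the pathway (*Nlrc5*). The cells came from WT C57BL/6Jax mice that had received no treatment other than a nanobody against ARTC2, given before harvest to protect the cells, and the labels give neither the age of the mice nor whether a library holds cells of 1 animal or of several. They were sorted as live TCR-β+ cells that bound CD1d tetramers loaded with PBS57, a lipid antigen, and that lacked B220, CD11b, CD11c and CD8. Bulk RNA-seq gave 4 libraries of this one condition, with replicates 3 and 4 from the experiment that the labels call first and replicates 1 and 2 from the one called second. No treated, knockout or lymphoid group is analysed here, so the values describe levels and their spread, and the only contrast is that between both experiments.

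Nearly all nucleated cells display class I molecules, which show CD8 T cells a sample of the peptides made inside the cell. Proteasomes cut proteins into peptides, the TAP transporter carries these into the endoplasmic reticulum, tapasin and chaperones help to load them, and the trimer of heavy chain, β2-microglobulin and peptide travels to the surface. Interferons induce most of these genes, and in cells exposed to IFN-γ, and in many lymphocytes at rest, the immunoproteasome subunits take the place of the constitutive catalytic ones. NKT cells themselves see lipids on CD1d, a class I-like molecule that also pairs with β2-microglobulin.

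Replicates 1 to 4 held 7233071, 8732858, 5487147 and 3882803 counts on genes. Levels within a gene are given as CPM, counts relative to the library total after correction with edgeR's TMM factors, and levels between genes as TPM, which also divides by exon length. A chosen floor of 3 counts came to 0.287 to 0.753 CPM across the libraries. All 10 genes had at least 10 counts in every library, the lowest being *Tap2* with 24 counts in replicate 4. The ribosomal precursor *Rn45s* took between 7.36% and 28.1% of the counts. T cell transcripts were present, in that all 7 T cell markers (such as *Cd3e* and *Lck*) had at least 10 counts in every library. *Cd8a* with *Cd8b1* had 0 to 13 counts. These counts do not measure the share of NKT cells in a library. RNA of other cells was present in unequal amounts. The 22 epithelial markers, 19 to 22 of which had counts in each library, summed to 1099, 8626, 287 and 30141 CPM in replicates 1 to 4, and the 6 plasma cell markers to 6565, 7014, 139 and 377 CPM, while the T cell markers summed to 2545, 991, 3474 and 1298 CPM. Single genes made up much of these sums. *Lyz1* held 21151 CPM of the epithelial sum in replicate 4, and *Jchain* 6099 and 6383 CPM of the plasma cell sum in replicates 1 and 2. The sums are therefore not amounts of RNA from a cell type. Marker levels of epithelium, plasma cells and T cells thus differed between libraries of a single condition. Since nearly all cell types express class I genes, the part of each cell type in the levels below was not tested. In bulk libraries, fewer cells of a type and less RNA per cell cannot be told apart.

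The 10 genes together took 0.894% of all counts in replicate 1 (95% Wilson interval 0.887% to 0.901%), 0.505% in replicate 2 (0.500% to 0.510%), 0.790% in replicate 3 (0.783% to 0.797%) and 0.441% in replicate 4 (0.435% to 0.448%). These intervals cover counting error only and are far narrower than the spread of the shares, 0.657% ± 0.219 (SD, n = 4). The totals include *Rn45s*, which took 11.4% of the counts in replicate 1 and 28.1% in replicate 3. As TMM-scaled CPM the 10 genes summed to 8956, 4222, 9676 and 4299 in replicates 1 to 4, with replicate 3 above replicate 1. *B2m*, *H2-K1* and *H2-D1* made up 88.5% ± 2.8 (SD, n = 4) of the counts on the 10 genes. The displayed molecule itself thus took most of the counts on these 10 genes, which leave out the 74 further genes of the pathway described at the end.

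By mean TPM the order of the genes was *B2m*, *H2-K1*, *H2-D1*, *Psmb9*, *Psmb8*, *Tapbp*, *Psmb10*, *Tap1*, *Nlrc5* and *Tap2*. They stood at ranks 2, 22, 112, 175, 466, 1070, 1575, 2298, 3091 and 6863 of the 11689 genes that reached 10 counts in 2 or more libraries, on which all ranks, percentiles and tests are based. The rank of *H2-D1* was 27 in place of 112 when its length was taken without the exon bases it shares with another gene model. For this rank only the length of *H2-D1* was changed, and all other genes kept their deposited lengths. The median of their mean TPM percentiles was 92.1, against 48.1 over all 11689 genes. Only *B2m* and *H2-K1* were neighbours in this order whose ranges over the 4 libraries did not overlap. Each other neighbouring pair overlapped in range, although 6 of the 9 neighbouring pairs stood in the same order within all 4 libraries at the deposited lengths, a count that includes *H2-K1* over *H2-D1*, which held in 2 libraries at the unshared length. *Tapbp* over *Psmb10*, *Psmb10* over *Tap1* and *Tap1* over *Nlrc5* held in 3 libraries each, so the middle of the order is not resolved by these replicates.

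**Figure D1:**
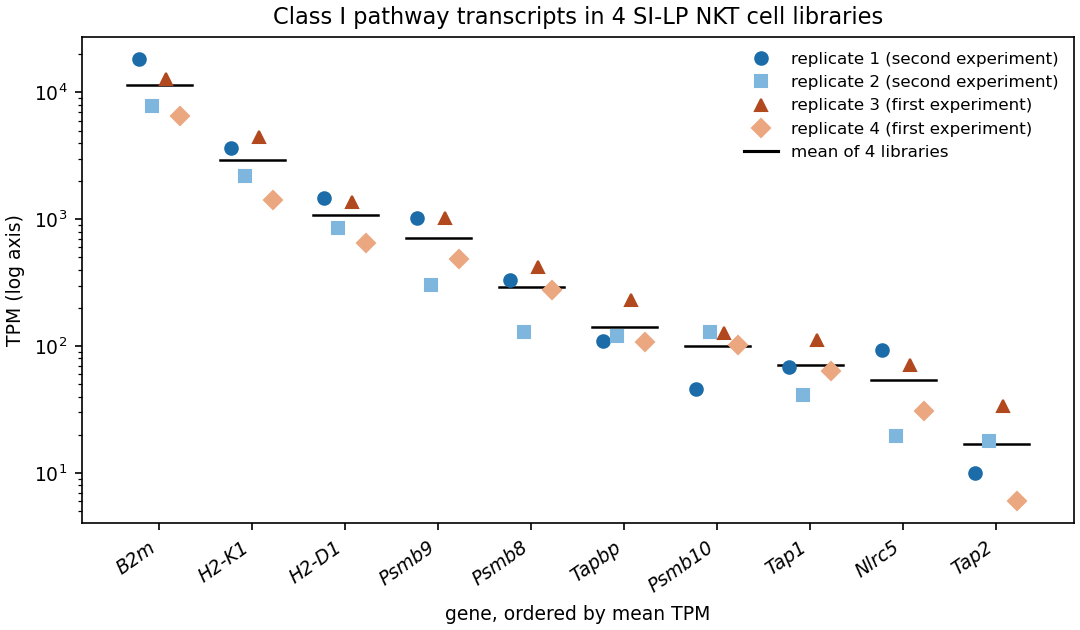
TPM of the 10 class I pathway genes on a log axis, ordered by mean, with 1 point for each of the 4 replicates and a bar for the mean. *B2m* lay between 6515 and 18407 TPM, above each of the other genes in all libraries, and *Tap2* between 5.99 and 33.7 TPM, at the low end.

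*B2m*, the invariant light chain of classical class I and CD1 molecules (chromosome 2, 122147687 to 122153082, GRCm38), had 18407, 7762, 12791 and 6515 TPM in replicates 1 to 4. It ranked 2, 6, 4 and 10 by TPM within these libraries, and its mean was 11369 ± 5420 TPM (SD, n = 4). Replicates 1 and 3 were high and replicates 2 and 4 low, and in CPM it had 5258, 2164, 4462 and 2258, a range of 2.43-fold.

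*H2-K1*, the K heavy chain (chromosome 17, 33996012 to 34000347), had 3657, 2201, 4465 and 1409 TPM, with a mean of 2933 ± 1382 TPM (SD, n = 4). *H2-D1*, the D heavy chain (chromosome 17, 35263094 to 35267497), had 1481, 853, 1364 and 655 TPM, with a mean of 1088 ± 397 TPM (SD, n = 4). For both, replicates 1 and 3 were again above replicates 2 and 4. *H2-K1* exceeded *H2-D1* by 2.47-fold, 2.58-fold, 3.27-fold and 2.15-fold in replicates 1 to 4, a mean log2 ratio of 1.37 ± 0.25 (SD, n = 4; p = 0.13 by a two-sided exact sign-flip permutation test, the smallest p that 4 libraries allow). This ratio rested on gene length. In the deposited annotation 1060 of the 1736 exon bases of *H2-D1* (61.1%) are shared with the gene model *H2-L*, and fragments that fall on 2 genes alike were not assigned. With the 676 unshared bases as its length, *H2-D1* had 3803, 2190, 3504 and 1682 TPM and the mean log2 ratio was 0.01 (exact permutation p = 0.875), with *H2-K1* higher in 2 of 4 libraries. The order of both heavy chains could therefore not be set, and as near-identical paralogs their counts are uncertain beyond this. *B2m* exceeded the sum of both heavy chains, at the deposited lengths, by 3.58-fold, 2.54-fold, 2.19-fold and 3.16-fold (2.87 ± 0.62, SD, n = 4), and by 1.99-fold ± 0.38 on average at the unshared length of *H2-D1*.

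The promoters of these 3 genes are shown because their levels were the highest of the 10 genes, with replicates 1 and 3 above replicates 2 and 4 in each. Each is the 250 bases before the transcription start in RefSeq's annotation of GRCm38.p6, written 5′ to 3′ on the strand of the gene, and 8 of the 10 genes had an entry (*Tap2* and *Nlrc5* did not). Capitals mark matches, on either strand, to an interferon-stimulated response element (ISRE-like: GAAA, then 2 bases of any kind, then GAAA), an interferon-γ activated site (GAS, TTCNNNGAA), the NF-κB motif or the CCAAT box. In *H2-K1* and *H2-D1* the 11 capitals in a row hold overlapping NF-κB matches.
B2m, chr2:122147437-122147686, plus strand: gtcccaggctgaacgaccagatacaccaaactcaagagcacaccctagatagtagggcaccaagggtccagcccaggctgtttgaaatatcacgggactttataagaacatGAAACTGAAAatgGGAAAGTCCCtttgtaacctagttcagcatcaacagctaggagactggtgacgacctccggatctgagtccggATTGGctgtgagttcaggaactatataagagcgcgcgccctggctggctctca
H2-K1, chr17:34000348-34000597, minus strand: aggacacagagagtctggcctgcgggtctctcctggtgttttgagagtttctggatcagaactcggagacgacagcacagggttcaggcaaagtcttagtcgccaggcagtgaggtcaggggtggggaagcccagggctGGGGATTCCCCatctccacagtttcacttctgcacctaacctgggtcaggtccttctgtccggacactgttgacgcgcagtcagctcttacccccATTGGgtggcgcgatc
H2-D1, chr17:35262844-35263093, plus strand: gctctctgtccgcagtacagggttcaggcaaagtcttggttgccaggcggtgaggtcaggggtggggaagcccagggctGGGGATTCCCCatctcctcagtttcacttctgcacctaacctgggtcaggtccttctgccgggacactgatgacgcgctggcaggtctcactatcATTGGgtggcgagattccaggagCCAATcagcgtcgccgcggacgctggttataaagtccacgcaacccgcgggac

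*B2m* held an ISRE-like match 139 to 130 bases before its start and an NF-κB match 126 to 117 bases before it. *H2-K1* and *H2-D1* shared an identical run of 47 bases, which begins 141 bases before the start of *H2-K1* and 201 before that of *H2-D1* and contains the NF-κB matches. Over the same window in 32851 RefSeq promoters, the ISRE-like letters were found in 2.98% and in 1 of the 8 promoters of these genes, the GAS letters in 7.02% and in 1 of 8, the NF-κB motif in 7.25% and in 3 of 8, and the CCAAT box in 33.8% and in 6 of 8. The CCAAT matches of *Tap1* and *Psmb9* are the same site, since both windows cover the stretch between these genes. The 6 promoters therefore do not hold 6 separate sites. A match to these short motifs is a description of the letters and not a bound site, and the libraries hold no measure of binding. Variants of the stated letters were not searched, so a promoter without a match is not shown to lack the element.

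The transporter was measured at lower levels than the chains it serves. *Tap1* (chromosome 17, 34187556 to 34197225) had 68.6, 41.0, 113 and 63.8 TPM in replicates 1 to 4, a mean of 71.5 ± 29.9 (SD, n = 4). *Tap2* (chromosome 17, 34204479 to 34216321), whose product forms the transporter as a heterodimer with TAP1, had 10.03, 17.8, 33.7 and 5.99 TPM, a mean of 16.9 ± 12.3 (SD, n = 4), and was the lowest of the 10 genes by mean. *Tap1* was above *Tap2* in all 4 libraries, by 2.31-fold in replicate 2 to 10.7-fold in replicate 4. The counts of *Tap2* were 60, 150, 153 and 24, so its ratio to *Tap1* rests on few fragments in replicates 1 and 4. Unlike the chains, *Tap2* was higher in replicate 2 than in replicate 1.

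*Tapbp*, tapasin, which bridges TAP and the empty class I molecule (chromosome 17, 33919478 to 33929290), had 111, 121, 231 and 108 TPM, a mean of 143 ± 59.2 (SD, n = 4). In CPM it had 101, 108, 258 and 120, so replicate 3 stood apart from the other replicates, which lay close together.

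*Psmb9* (LMP2, the inducible subunit in the place of the constitutive *Psmb6* product; chromosome 17, 34182099 to 34187330) had 1020, 303, 1018 and 485 TPM, a mean of 707 ± 368 (SD, n = 4), the highest of the inducible subunits in each library. *Psmb8* (LMP7, counterpart of *Psmb5*; chromosome 17, 34198195 to 34201454) had 332, 129, 420 and 279 TPM, a mean of 290.0 ± 122 (SD, n = 4). *Psmb10* (MECL-1, counterpart of *Psmb7*; chromosome 8, 105935728 to 105938392) had 46.2, 128, 128 and 102 TPM, a mean of 101 ± 38.6 (SD, n = 4). For *Psmb9* and *Psmb8* replicate 2 was the lowest library, whereas for *Psmb10* it was replicate 1.

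*Psmb9*, *Tap1*, *Psmb8* and *Tap2* lie side by side on chromosome 17, between 34182099 and 34216321, in the MHC region. *Psmb9* and *Tap1* are transcribed away from each other from starts that are 226 bases apart, and the 225 bases between them are shown because both transcripts read out from this one stretch. The promoter of *Psmb8* is shown because it held the only GAS match among the 8 promoters. Source, window and capitals are as above.
Psmb9 to Tap1, chr17:34187331-34187555, plus strand: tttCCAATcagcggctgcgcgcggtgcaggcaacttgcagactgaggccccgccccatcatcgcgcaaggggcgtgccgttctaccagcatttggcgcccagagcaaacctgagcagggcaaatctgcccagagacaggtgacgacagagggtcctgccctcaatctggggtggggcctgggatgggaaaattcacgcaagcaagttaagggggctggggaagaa
Psmb8, chr17:34197945-34198194, plus strand: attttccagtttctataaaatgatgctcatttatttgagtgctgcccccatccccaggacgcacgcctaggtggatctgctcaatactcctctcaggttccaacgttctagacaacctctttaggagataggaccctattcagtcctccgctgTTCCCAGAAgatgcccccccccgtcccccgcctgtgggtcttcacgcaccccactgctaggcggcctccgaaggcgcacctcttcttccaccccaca

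Between *Psmb9* and *Tap1* the CCAAT box was found at bases 4 to 8, counted from the *Psmb9* end, and none of the other 3 motifs occurred there. In *Psmb8* the GAS match lies 97 to 89 bases before the start. Although they share this stretch, *Psmb9* and *Tap1* were not measured at equal levels: *Psmb9* had 14.9-fold, 7.41-fold, 9.04-fold and 7.61-fold the TPM of *Tap1* in replicates 1 to 4. Both were highest in replicate 3 by CPM and lowest in replicate 2.

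To ask how far the inducible subunits outweigh their constitutive counterparts, each pair was compared within libraries, where the scaling of the library cancels. *Psmb9* exceeded *Psmb6* (240, 125, 81.6 and 111 TPM) in all 4 libraries, by 4.25-fold, 2.43-fold, 12.5-fold and 4.38-fold, a mean log2 ratio of 2.28 ± 0.98 (SD, n = 4). *Psmb8* exceeded *Psmb5* (41.6, 179, 104 and 117 TPM) in 3 of 4 libraries, with ratios of 7.98, 0.72, 4.04 and 2.39 and a mean log2 ratio of 1.45 ± 1.46 (SD, n = 4). The ratio of 7.98 in replicate 1 rests on 87 counts of *Psmb5*. Of the exon bases of *Psmb5*, 12.5% are shared with *Mir686*, and at its unshared length the mean log2 ratio was 1.26 (exact permutation p = 0.25). *Psmb10* was below *Psmb7* (58.0, 280, 141 and 227 TPM) in all 4 libraries, with ratios of 0.80, 0.46, 0.91 and 0.45 and a mean log2 ratio of -0.69 ± 0.53 (SD, n = 4). This order rested on the correction for length, since by CPM *Psmb10* was above *Psmb7* in 2 of 4 libraries (mean log2 ratio -0.30, exact permutation p = 0.50) and *Psmb8* above *Psmb5* in 4 of 4 (1.94). The two-sided exact sign-flip permutation p was 0.13 for *Psmb9* and *Psmb6* and for *Psmb10* and *Psmb7*, and 0.25 for *Psmb8* and *Psmb5*. After Benjamini-Hochberg adjustment over these 3 pairs they were 0.188, 0.188 and 0.25. With 4 libraries 0.13 is the smallest p the test can give, so none could pass 0.05.

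Summed over the 6 catalytic subunits, the inducible ones made up 80.5%, 49.0%, 82.7% and 65.6% of the TPM in replicates 1 to 4 (69.4% ± 15.6, SD, n = 4). Replicates 2 and 4, in which this percentage was lower, are also those with the higher epithelial marker level of their experiment, and the part of epithelial RNA in it was not tested. Leaving out both of them was chosen after the data were seen. As they are the libraries with the lower percentage, higher ratios without them are built into this choice. The mean log2 ratio without them was 2.86 for *Psmb9* and *Psmb6*, 2.51 for *Psmb8* and *Psmb5* and -0.23 for *Psmb10* and *Psmb7*. Each is over 2 libraries, for which the exact permutation test gives 0.50, the smallest p it can. *Psmb11*, the catalytic subunit of the thymoproteasome in cortical thymic epithelium, had 0 counts in every library.

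**Figure D2:**
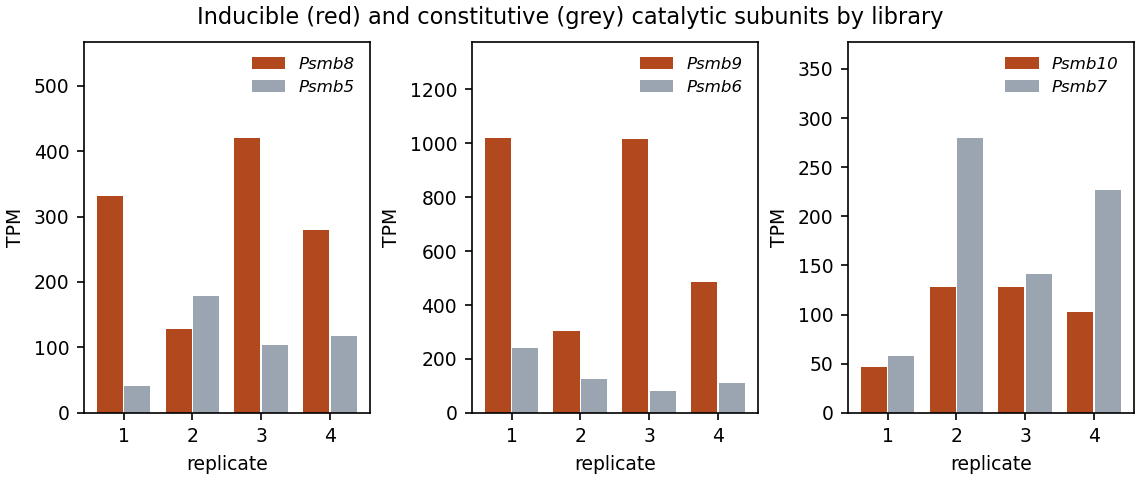
TPM of each inducible catalytic subunit (red bars) and its constitutive counterpart (grey bars) in replicates 1 to 4, with 1 panel for each pair and axes that start at 0. *Psmb9* was above *Psmb6* in 4 of 4 libraries, *Psmb8* above *Psmb5* in 3 of 4 and *Psmb10* below *Psmb7* in 4 of 4, which by CPM was 2 of 4.

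*Nlrc5*, the NLR protein that acts at class I promoters as CIITA does at those of class II (chromosome 8, 94472763 to 94527272), had 93.4, 19.4, 71.4 and 30.6 TPM, a mean of 53.7 ± 34.6 (SD, n = 4). In CPM it had 216, 43.9, 202 and 85.8, a 4.92-fold range and, after *Tap2* with 5.67-fold, the second widest of the 10 genes. *Ciita* was the lowest of the class I regulators listed, with 2.01, 2.21, 0.55 and 1.45 TPM in the same libraries, below *Nlrc5* in each.

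Between both experiments, edgeR's quasi-likelihood test called 0 of the 10 genes at an adjusted p of 0.05, and 0 of all 11689 genes (0%). At an unadjusted p of 0.05 the counts were 0 of 10 and 248 of 11689 (2.12%), and at an adjusted p of 0.05 by DESeq2 they were 0 of 10 and 41 of 11689 (0.351%). The smallest unadjusted p among the 10 genes was 0.19 (*Tap1*), and the adjusted p from edgeR was 0.9997 for each. The log2 difference of the second minus the first experiment ran from -0.99 (SE 0.68) for *Tap1* to 0.14 (SE 0.88) for *B2m*, with means of 106 CPM in the first and 53.3 in the second experiment for *Tap1* and of 3360 and 3711 CPM for *B2m*. It was below 0 for 9 of the 10 genes, with a median of -0.59, and for 5683 of all 11689 genes, with a median of 0.03. The 7 T cell markers lay on the same side, all below 0 with a median of -0.56. Under other scalings or without single libraries the difference changed sign for *B2m*, *H2-K1*, *H2-D1*, *Tap2*, *Psmb9* and *Nlrc5*, so no direction is read from it. Standard errors of 0.61 to 1.32 log2 units meant that differences of 2-fold (1 log2 unit) could not be told from replicate error. The biological coefficient of variation over all 4 libraries, estimated without a term for experiment, was 0.951.

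Libraries of the same experiment differed as well. With TMM scaling, though not with the T cell marker scaling given after it, 7 of the 10 genes (*B2m*, *H2-K1*, *H2-D1*, *Tap1*, *Psmb8*, *Psmb9* and *Nlrc5*) were lower in replicate 2 than in replicate 1 and also lower in replicate 4 than in replicate 3. The same held for 29.9% of all genes tested and for 37.5% of the 8089 genes that reached 10 counts in every library. The other 3, *Tap2*, *Tapbp* and *Psmb10*, were higher in replicate 2 and lower in replicate 4. The log2 difference of replicate 2 minus 1 was -1.28 for *B2m*, -1.78 for *Psmb9* and -2.29 for *Nlrc5*, and that of replicate 4 minus 3 was -0.98, -1.08 and -1.23 for the same genes. For *Psmb10* these differences were 1.42 and -0.33. The medians over the 10 genes were -0.80 and -1.07, against 0.13 and 0.08 over all genes tested. With 1 library on each side, none of these within-experiment differences has a test.

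T cell markers differed in the same way: 7 of 7 were lower in replicates 2 and 4 than in their partners, with median log2 differences of -1.03 and -1.47. When the libraries were scaled to the median level of the T cell markers in place of TMM, 0 of the 10 genes were lower in both pairs, 3 (*Tap1*, *Tapbp* and *Psmb10*) were higher in both, and the median differences were 0.00 and 0.35. Over all genes tested 5.28% were lower and 65.2% higher in both with this scaling, against 29.9% and 35.4% with TMM, so 0 of 10 lower is near the background. This scaling moved the median of all genes to 0.93 and 1.497. It adds the same amount to every gene, so the place of the 10 genes relative to all genes is the same under both scalings by construction. *H2-K1* then differed by 0.03 and -0.25 and varied least of the 10 genes (SD of log2 level 0.19), whereas *Psmb10* differed by 2.22 and 1.09. The median SD of log2 CPM was 0.77 with TMM and 0.44 with T cell marker scaling for the 10 genes, 1.02 and 1.23 for all genes tested, and 0.76 and 0.94 for the 8089 genes that reached 10 counts in every library, as all 10 did. With TMM the 10 genes thus varied about as much as the median of these 8089 genes. Those genes had a median TPM percentile of 60.8, against 92.1 for the 10 genes, so the comparison is not matched for level.

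**Figure D3:**
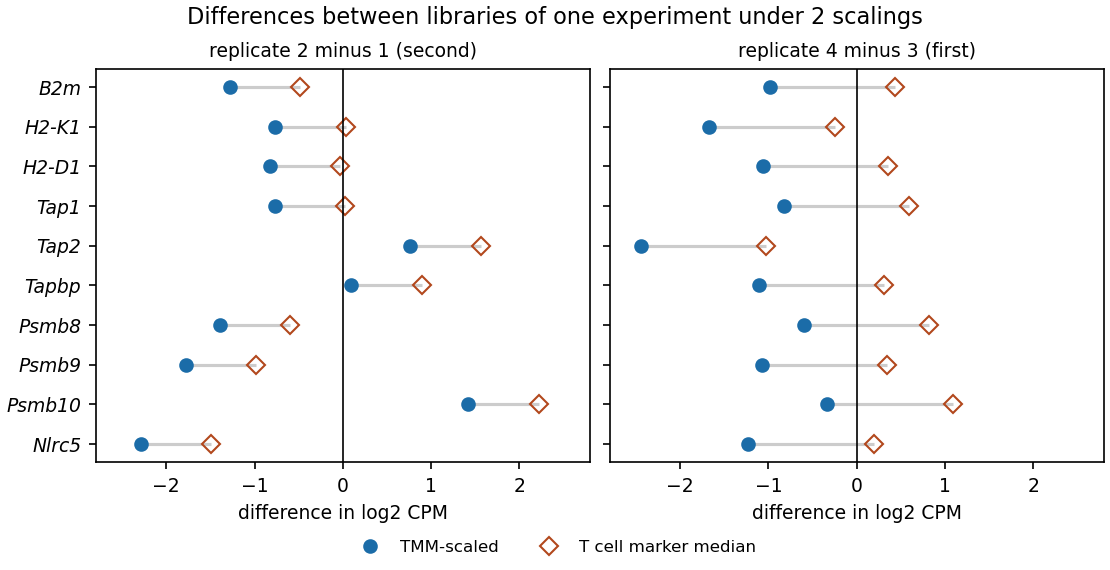
Log2 difference in CPM of each class I pathway gene between the libraries of one experiment, replicate 2 minus 1 on the left and 4 minus 3 on the right, with TMM scaling (filled circles) and with scaling to the T cell marker median (open diamonds). With TMM 7 of the 10 genes lie below 0 in both panels, and with T cell marker scaling 0 do.

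**Figure D4:**
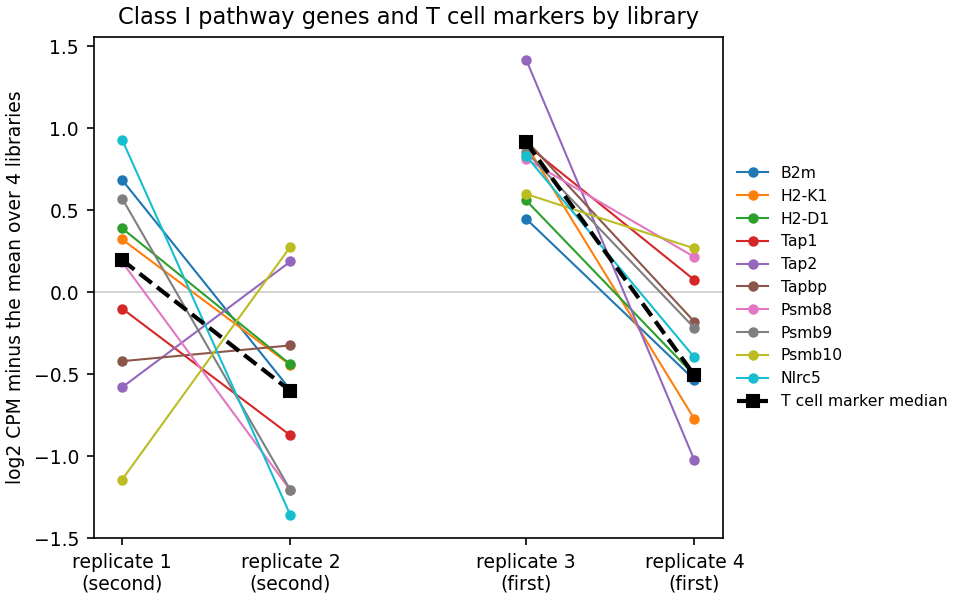
Log2 CPM (TMM scaling) of each class I pathway gene (coloured lines) and the median of the T cell markers (black dashed line) in replicates 1 to 4, each centred on its mean over the libraries, with lines joining libraries of one experiment. The T cell marker median lay at 0.20, -0.60, 0.91 and -0.51, and *Psmb10*, *Tap2* and *Tapbp* were higher in replicate 2 than in replicate 1, unlike the other genes.

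Averaged over the 10 genes, the centred log2 CPM (TMM scaling) was 0.08, -0.60, 0.82 and -0.31 in replicates 1 to 4. *H2-D1* lay closest to this profile, at a Euclidean distance of 0.48 log2 units over the 4 libraries, and *Psmb10* farthest, at 1.63. The median of all genes tested lay at 2.03. Each of the 10 genes is part of the profile it is measured against, so their distances cannot be compared with this median. Of the genes outside the list, *Ube2v1* (0.114), *Bcr* (0.116), *Dr1* (0.116), *Slc3a2* (0.151) and *Fermt3* (0.156) were the closest to the profile. With 4 libraries many genes can come close by this measure.

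Beyond the 10 genes, 74 further genes of the pathway were listed in 7 groups, and 66 of them were tested. Between the experiments 0 of 66 passed an adjusted p of 0.05 in either direction by edgeR, and 0 had an unadjusted p under 0.05. DESeq2 called 0 of the 66 after adjustment and 1 at an unadjusted p of 0.05. Within the experiments, 30 of the 66 were lower and 16 higher in both replicates 2 and 4 than in their partners with TMM scaling, and 5 were lower and 38 higher with T cell marker scaling. The shares of all genes to read these and the counts per group against are those given above, 29.9% lower and 35.4% higher with TMM and 5.28% lower and 65.2% higher with T cell marker scaling, which shifts all genes by the same amount.

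Loading and trimming factors (10 of 10 tested) stood at a median TPM percentile of 95.1. *Hspa5*, the chaperone BiP, was the highest, with 1627, 1739, 975 and 721 TPM, and *Erap1*, the peptidase that trims peptides in the endoplasmic reticulum, the lowest, with 93.6, 49.3, 65.6 and 59.8 TPM. Of this group 4 genes were lower and 2 higher in both replicates 2 and 4 than in their partners with TMM scaling, and 0 were lower and 7 higher with T cell marker scaling, not far from the shares of all genes. Proteasome activators and assembly factors (7 of 8 tested; *Psmg4* was not) had a median percentile of 90.9. *Psme1*, a subunit of the interferon-inducible PA28 activator, was the highest, with 1271, 821, 1394 and 609 TPM. *Psmg3*, a chaperone of 20S assembly, was the lowest, with 2.39, 9.13, 21.4 and 20.7 TPM.

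The other subunits of the 20S core, which constitutive and immunoproteasomes share, had a median percentile of 92.8 (11 of 11 tested), from *Psma3* (mean 120.0 ± 46.5 TPM, SD, n = 4) to *Psmb4* (362 ± 140.2). Of these 11, 1 was lower and 6 were higher in both replicates 2 and 4 with TMM scaling, and 0 were lower and 11 higher with T cell marker scaling, where 65.2% of all genes were higher. Of the 3 constitutive catalytic subunits tested, 0 were lower and 2 higher in both under either scaling. In the same libraries *Psmb8* and *Psmb9* were lower in replicate 2 than in replicate 1 under both scalings, and in replicate 4 lower than in replicate 3 with TMM but higher with T cell marker scaling.

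Of the nonclassical class I genes, 11 of 17 were tested, at a median percentile of 50.2. *H2-Q6* was the highest, with 871, 386, 637 and 205 TPM, but 46.2% of its exon bases are shared with *H2-Q8*, and *H2-Q7*, of which 99.0% are shared with *H2-Q9*, had 0 counts, as had *H2-M2*. *H2-K1* and *H2-D1* made up 79.6% ± 2.4 (SD, n = 4) of the summed TPM of these chains and the 14 nonclassical H2 genes listed. With the unshared length for *H2-D1* alone, their share of this sum was 84.9% ± 1.8. There *H2-Q6* and the other nonclassical genes with shared bases kept their deposited lengths, so this rise rests on a correction of 1 gene only. *H2-L*, *H2-Q8*, *H2-Q9* and *H2-T9* are not in this sum. *Cd1d1*, which encodes the restricting molecule of NKT cells and was named after its values were seen, had 0, 109, 28 and 0 counts.

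The regulators (16 of 16 tested) stood at a median percentile of 61.2. *Irf1*, an interferon-induced transcription factor that acts on class I genes and was likewise named after its values were seen, had 97.1, 72.4, 141 and 102 TPM. Among interferon receptors, their kinases and *Ifng* (8 of 8 tested, median percentile 86.3), *Ifngr1*, the ligand-binding chain of the IFN-γ receptor, was the highest, with 749, 485, 1011 and 365 TPM, and the kinase gene *Tyk2* the lowest, with 49.6, 22.4, 23.1 and 14.3 TPM. In both replicates 2 and 4, 9 of the 16 regulators and 7 of these 8 genes were lower than in the partner library with TMM scaling, and 1 of 16 and 1 of 8 with T cell marker scaling, where 5.28% of all genes were. No stimulated or blocked cells are among the libraries, so what interferon does to the 10 genes in these cells was not measured.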

How the data were processed

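RNA-seq libraries of sorted SI-LP NKT cells were made with a kit for low RNA amounts. The authors deposited raw counts per gene with exon lengths (not a measurement). Per the file headers, read pairs with primary alignments were counted on exons with featureCounts 1.6.4, a RefSeq annotation and no strand option, and fragments on overlapping genes were not assigned. The methods name HISAT2 and GRCm39, the labels GRCm38.p6 together with RSEM and Bowtie2. Coordinates follow GRCm38 as deposited. The table holds 2 library columns that match no label, and these were used in no step.

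All 4 libraries form 1 group, and p-values measure only the spread between these samples, since the labels do not say that they came from separate animals. TMM factors from edgeR gave CPM, and the deposited exon lengths gave TPM. Both experiments were compared by the quasi-likelihood test of edgeR for genes that reached 10 counts in 2 or more libraries, with p-values adjusted by the Benjamini-Hochberg method. Ratios within libraries were tested with a two-sided exact sign-flip permutation test. Log2 CPM per library used a prior count of 2. Total counts ran from 3882803 to 8732858. Wilson intervals (95%) and the floor of 3 counts cover counting error only, as PCR copies are not independent molecules.

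The members, gene lists and tests were chosen with earlier results of these data known. Named are the 10 genes, the highest and lowest of each list by mean TPM, genes that passed the test, the constitutive counterparts and the 5 genes nearest to the mean profile, and the text says where a gene was named after its values were seen. The highest of the regulators is not reported here. Alternatives were other filters on low counts, DESeq2, library size alone, median-of-ratios factors, *Rn45s* left out, scaling to the T cell marker median, CPM in place of TPM, another prior count and leaving out each replicate. Exon lengths without shared bases, and leaving out both replicates 2 and 4, were added after seeing the data. Promoter sequences are from RefSeq (GRCm38.p6). Python 3.11.15 was used with scipy 1.17.1, pandas 2.3.3, numpy 2.4.6 and matplotlib 3.10.9, and R 4.3.3 with DESeq2 1.42.0, limma 3.58.1 and edgeR 4.0.16.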

Additional observations from a re-analysis of the deposited data

Results flagged for a closer look

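*Tapbp* was the only 1 of 17 values examined in which a library stood apart from the other 3 by Dixon's criterion for 4 samples. Replicate 3 had 258 CPM and the other replicates 101 to 120 CPM, so that the gap was 0.883 of the whole range. Chance gives such a flag in about 1 of 20 groups, or 0.85 of 17.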

How the results depend on the processing

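Between the experiments 0 of the 10 genes passed an adjusted p of 0.05 under each alternative run, and the count over all genes, 0 with edgeR, was 41 with DESeq2, 60 without a filter on low counts, and 0 to 7 when single replicates were left out (7 without replicate 3, 6 without replicate 4). The median TPM percentile of the 10 genes was 92.1, and 86.0 by CPM in place of TPM. The mean log2 ratio of *H2-K1* to *H2-D1* was 0.011 with exon lengths that no other gene shares, where the overlap with *H2-L* makes the difference. That of *Psmb8* to *Psmb5* ran from 0.93 to 2.09 without single replicates. Scaling to the T cell marker median moved 17 of 21 values, within-experiment differences and their spread, by more than the spread between replicates. Mean CPM of the 10 genes changed by -5.30% to 21.0% under other scalings, and that of *Tap2* was 9.57 without replicate 3, against 15.7 with all libraries. No paired analysis was possible because the libraries form one group, in which no replicate number occurs more than once. The number of libraries, their spread and unequal amounts of other cells' RNA limit these results, as does depth for *Tap2*, which had 24 to 153 counts.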
